A study of Mus musculus with 13 samples.

Results

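Cathepsins are proteases of the lysosome, the acid compartment in which cells degrade proteins delivered by endocytosis and autophagy. Most are cysteine proteases, while cathepsin D is an aspartic protease and cathepsin A a serine carboxypeptidase. In skeletal muscle they work beside the ubiquitin-proteasome system, and Ctsl, which encodes cathepsin L, is widely used as a transcript marker of muscle atrophy. The 10 cathepsin genes described here, Ctsl, Ctsb, Ctsd, Ctsz, Ctss, Ctsk, Ctsa, Ctsf, Ctsh and Ctsc, were taken by symbol from the 21868 genes of a table of normalized counts. All 10 reached a mean of 10 normalized counts over the mice and were among the 12303 genes tested.

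The RNA came from whole gastrocnemius, a fast muscle of the calf, of 13 obese male C57BL/6N mice. All animals entered the study at 7 weeks of age, had 1 week of acclimatization, ate a diet with 60 kcal% fat for 15 to 17 weeks, and were then moved to chow for the 3 weeks of treatment. Vehicle-treated mice (n = 5) received phosphate-buffered saline and placebo. Semaglutide, an agonist of the GLP-1 receptor, was injected intraperitoneally at 30 nM/kg per day, either with placebo (n = 5) or with a ketone ester in the drinking water at 0.114 g/mL (n = 3). The comparisons ask which cathepsin transcripts differ with semaglutide, and which differ when the ketone ester is added. Mice are numbered within their group. Chow feeding and prior obesity were shared by all 3 groups, and no mouse given the ketone ester alone was part of the comparison.

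Between 15319471 and 23498162 reads per mouse were counted on genes, and cathepsin transcripts made up 0.0911% to 0.101% of them in vehicle-treated mice, 0.0855% to 0.178% in semaglutide-treated mice and 0.0919% to 0.0944% in mice that also had the ketone ester. Total normalized counts were 1.90e+07 to 1.99e+07 in vehicle-treated and 1.49e+07 to 1.81e+07 in semaglutide-treated mice. Shares of reads therefore stand higher under semaglutide than normalized counts do. The summed normalized counts of the 10 genes were 17770 to 19117 with vehicle, 15359 to 26459 with semaglutide and 18033 to 19481 with the ketone ester. Markers of muscle fibres were all present, with 10 of 10 above the minimum mean. Semaglutide mice 1 and 4 stood apart from the other 3 of their group. Over all genes tested, semaglutide mouse 1 lay closer to the vehicle mean than to the mean of the other semaglutide-treated mice, with root mean square log2 differences of 0.48 and 0.62, whereas each of the other 4 lay closer to its own group. Semaglutide mouse 4 had summed adipocyte markers of 11063 normalized counts, against at most 2674 in any other mouse, and summed lymphocyte markers of 144, against at most 17.3. For the 10 cathepsin genes, results that rest on these mice are given with and without them. Single genes outside the 10 are given with all mice only.

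Levels of different genes can be compared only per length, and the order here depended on how length was defined. The length used was the merged exons of all GENCODE M21 transcripts of a gene, which counts sequence of every annotated isoform and came to 6489 bases in Ctsl and 1441 in Ctsz. On that scale Ctsd was the most abundant member in vehicle-treated mice, at 4207 ± 98.3 normalized counts per kb (SD, n = 5), followed by Ctsb at 833 ± 55.5. Ctsz at 260 ± 35.2, Ctsa at 244 ± 12.0 and Ctsl at 170 ± 16.0 came next, the first 2 of them overlapping. Ctsc at 76.3 ± 20.9, Ctsf at 64.9 ± 5.63, Ctss at 50.2 ± 30.2, Ctsk at 45.5 ± 19.8 and Ctsh at 23.4 ± 3.19 followed, each overlapping with its neighbour in this order. With the median length of the coding transcripts of each gene, a choice made after the data were seen, Ctsd was again the highest, at 4886 ± 114 normalized counts per kb, but Ctsl stood next at 1323 ± 124, with Ctsa at 1196 ± 58.8 and Ctsb at 1062 ± 70.8 overlapping their neighbours. The median coding length was 834 bases in Ctsl, over 5 transcripts, and 961 in Ctsa, against 4743 in Ctsb with 1 transcript. The second place of Ctsl rests on that short median, and which length suits the counted reads was not tested. The place of Ctsd was the same under both lengths and that of Ctsl was not. Other cathepsin genes were scarce in this muscle. Of 12, Ctso alone reached the minimum, and Ctsj, Ctsm, Ctsq, Ctsr, Cts3, Cts6 and Cts8 were listed at 0 in all mice.

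The E-box CACGTG is the core of the element bound by Tfeb and Tfe3, transcription factors of lysosomal genes, and the places where these letters occur near cathepsin start sites are shown as sequence context for the transcripts that follow. RefSeq promoter windows of 300 bases (GRCm38.p6, 250 before and 50 after the start site, both strands searched) were matched for 8 of the 10 members. The E-box was found in 4 of these 8 and in 8.09% of the 27025 genes with a window. TCACGTG, which contains the E-box and extends it by 1 base, was found in 2 of the 8, Ctsd and Ctsa, and in 4.29% of genes. TGTTTAC, a forkhead motif, was found in 0 of the 8 and in 4.05% of genes. A match is a run of letters, and binding was not measured. The stretches below are read on the strand of the gene with the E-box in capitals, and all but the first Ctsd stretch, at the edge of its window, have 12 bases on either side.
Ctsl, chr13:64370739-64370768, minus strand: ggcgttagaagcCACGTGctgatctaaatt
Ctsd, chr7:142388055-142388077, minus strand: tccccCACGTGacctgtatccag
Ctsd, chr7:142387908-142387937, minus strand: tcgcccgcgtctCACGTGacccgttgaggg
Ctsa, chr2:164833749-164833778, plus strand: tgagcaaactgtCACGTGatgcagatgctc
Ctsa, chr2:164833766-164833795, plus strand: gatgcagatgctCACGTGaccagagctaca
Ctsf, chr19:4855074-4855103, plus strand: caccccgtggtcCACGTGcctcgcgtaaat
The first base of the E-box lay at -236 from the RefSeq start site in Ctsl, at -245 and -98 in Ctsd, at -12 and 6 in Ctsa and at -79 in Ctsf. In GENCODE M21 the Ctsl, Ctsa and second Ctsd stretches fall in an annotated untranslated exon of the gene, while the first Ctsd stretch and that of Ctsf lie outside the gene.

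Ctsl and Ctsz rose and Ctsh fell with semaglutide against vehicle, so that 3 of the 10 cathepsin genes passed an adjusted p of 0.05 in limma. Of all genes tested, 11.9% were higher and 13.2% were lower in this comparison, and the 2 higher and 1 lower among 10 members were read against those shares as counts near the background. The median log2 fold change of the 10 members was 0.12, against -0.0029 for all genes tested. When the ketone ester was added, Ctsl was lower and Ctsh higher than with semaglutide alone, 2 of 10 members, with 9.3% of all genes lower and 9.09% higher. The members' median log2 fold change in that comparison was 0.13, and that of all genes -0.0002. Semaglutide + ketone ester against vehicle gave 0 of 10 cathepsins by limma, with 2 at an unadjusted p under 0.05 (Ctsa and Ctsc), and edgeR and DESeq2 on the recovered reads also gave 0. Of all genes, 0.0732% were higher and 0.163% lower in that comparison, and 1289 of 12303 had an unadjusted p under 0.05. With each library scaled to the same total, 3 members were higher and 0 lower with semaglutide against vehicle, where 26.5% of all genes were higher and 7.52% lower. The ketone ester against semaglutide alone then gave 0 higher and 3 lower, where 4.95% of all genes were higher and 29.1% lower, so that the tilt was that of all genes. The comparisons of semaglutide with vehicle and of semaglutide + ketone ester with semaglutide use the same 5 semaglutide-treated mice, so that their opposite signs are not independent. By the criterion in the methods of the study, a one-way analysis of variance across the 3 groups with an unadjusted p under 0.05 and at least a 1.5-fold range of group means, 4 of the 10 were altered, Ctsl, Ctsz, Ctsh and Ctsc, against 16.1% of all genes.

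**Figure D1:**
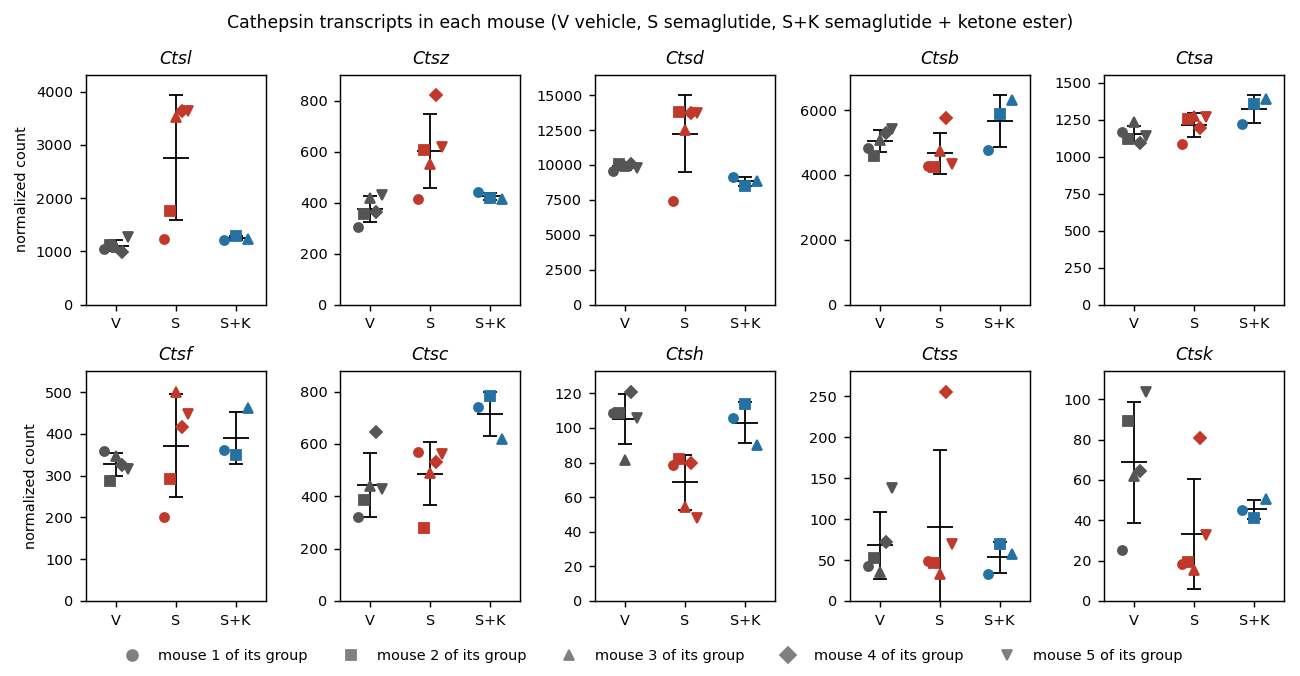
Normalized counts (vertical axis, from 0) of the 10 cathepsin genes in vehicle (V, n = 5), semaglutide (S, n = 5) and semaglutide + ketone ester (S+K, n = 3) mice; each symbol is 1 mouse, and bars are the mean ± SD, with the lower bar of Ctss under semaglutide ending below 0 and cut off by the axis. Ctsl in semaglutide mice 2 to 5 lies above all other mice, and Ctss and Ctsk under semaglutide each have 1 high mouse, number 4.

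Ctsl (ENSMUSG00000021477.9, chr13:64359337-64370890, minus strand, mm10) encodes an endopeptidase that degrades proteins within the lysosome. Its normalized counts were 1048, 1128, 1085, 989 and 1264 in vehicle-treated mice. They were 1231, 1750.2, 3527, 3639 and 3639 in semaglutide mice 1 to 5, and 1212, 1285 and 1237 with the ketone ester. Semaglutide mouse 1 lay inside the vehicle range, mouse 2 above it, and mice 3, 4 and 5 at nearly the same, much higher level. The coefficient of variation was thus 42.5% under semaglutide, against 9.4% in vehicle-treated mice and 2.99% with the ketone ester. Ctsl was 2.29-fold higher with semaglutide than with vehicle (log2 fold change 1.19 ± 0.27 SE, 95% confidence interval 0.60 to 1.79, limma adjusted p = 0.0091), and this call held with each mouse left out in turn (adjusted p 0.00027 to 0.026). It was 2.02-fold lower with semaglutide + ketone ester than with semaglutide alone (log2 fold change -1.01 ± 0.32 SE, 95% confidence interval -1.70 to -0.33, adjusted p = 0.0425). Against vehicle, the ketone ester group differed by 0.18 on the log2 scale (95% confidence interval -0.51 to 0.86, adjusted p = 0.92).

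The difference in Ctsl between semaglutide + ketone ester and semaglutide alone was close to the threshold. It stayed past it without semaglutide mouse 1 (-1.27, adjusted p = 0.0016) or mouse 2 (-1.15, adjusted p = 0.036). It missed it without semaglutide mouse 3, 4 or 5 (adjusted p = 0.087, 0.077 and 0.091), without semaglutide + ketone ester mouse 1, 2 or 3 (0.099, 0.11 and 0.12) and without any 1 of the 5 vehicle-treated mice (0.055 to 0.057), whose spread enters the same fit. Ctsl overlaps the antisense gene Gm47123 and, on the same strand, the processed pseudogene Gm49230. Whether the counting used strand is not given in the sources used here, and strand could not separate the pseudogene from Ctsl. Reads of these genes were therefore not told apart.

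Ctsb encodes cathepsin B, an endopeptidase that also removes carboxy-terminal dipeptides. It had the highest level of the cysteine cathepsins per kilobase of merged exons. It stood below Ctsl per median coding transcript length, which was 4743 bases for Ctsb and only 834 for Ctsl. Its normalized counts were 4840.4, 4578, 5079, 5282 and 5411 in vehicle-treated mice, 4276, 4259.9, 4732, 5745 and 4348 in semaglutide-treated mice, and 4759.8, 5896 and 6304 with the ketone ester. The 3 groups overlapped, and semaglutide mice 1, 2 and 5 lay below every vehicle-treated mouse. Ctsb did not pass the test with semaglutide against vehicle (log2 fold change -0.12 ± 0.11 SE, limma adjusted p = 0.46), an interval of -0.35 to 0.12 that holds no rise of the size seen for Ctsl. With the ketone ester against semaglutide alone the difference was 0.27 ± 0.12 SE on the log2 scale (adjusted p = 0.14, and 0.044 without semaglutide mouse 4). The ratio of Ctsl to Ctsb per kilobase of merged exon was 0.175 to 0.23 in vehicle-treated mice and 0.183 to 0.237 with the ketone ester. It was 0.268 to 0.781 in semaglutide-treated mice, each above all mice of the other groups. The lowest of them, mouse 1, had Ctsb below and Ctsl inside the vehicle range. Ctsb was a chosen denominator, and Ctsd did not separate the groups. Of the members' summed level per kilobase, Ctsl made up 3.496% in both semaglutide mouse 2 and semaglutide + ketone ester mouse 2. Ctsd made up 76.3% and 63.7% in these mice. Whether other ratios separate the groups was not tested. Ctsb and the gene Fdft1 overlap on opposite strands.

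Ctsf encodes another lysosomal cysteine endopeptidase. Its normalized counts ranged from 287 to 359 in vehicle-treated mice (median 325) and from 349 to 461 with the ketone ester (median 361). Under semaglutide they were 200.2, 292, 501, 418 and 448, with mouse 1 below and mice 3, 4 and 5 above every vehicle-treated mouse. The mean difference between semaglutide and vehicle was 0.11 ± 0.21 SE on the log2 scale (limma adjusted p = 0.73), and -0.011 to 0.32 with each mouse left out. Between semaglutide + ketone ester and semaglutide it was 0.13 ± 0.25 SE (adjusted p = 0.74), and -0.07 without semaglutide mouse 1.

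Ctss and Ctsk are best known outside the muscle fibre. Cathepsin S processes the invariant chain in antigen-presenting cells and is abundant in macrophages, and cathepsin K degrades collagen and is expressed by osteoclasts and fibroblasts. Ctss had normalized counts of 42.3, 53.0, 35.9, 72.1 and 137 in vehicle-treated mice, 49.3, 46.2, 33.3, 255 and 70.1 in semaglutide-treated mice and 32.8, 70.1 and 57.7 with the ketone ester. The groups overlapped and 1 mouse, semaglutide mouse 4, was the highest of all. The log2 fold change with semaglutide was 0.15 ± 0.51 SE (limma adjusted p = 0.85), and -0.32 without that mouse, and neither comparison with the ketone ester group passed (adjusted p = 0.68 and 0.94). In the same mouse the summed macrophage and monocyte markers were 2843 normalized counts, against 769 to 2261 in vehicle-treated mice, 913 to 1347 in the other semaglutide-treated mice and 1079 to 2050 with the ketone ester, and Cd68 was 252 against at most 119 elsewhere. Of the 11 macrophage and monocyte markers tested, 0 passed by limma in the 2 comparisons with the semaglutide group, and 0 had an unadjusted p under 0.05. Of all genes, 25.1% and 18.4% passed in these comparisons, and 4744 and 4215 of 12303 had an unadjusted p under 0.05. Of the 4 antigen-presenting cell markers tested, H2-Aa, H2-Ab1 and Cd74 fell with semaglutide (log2 fold changes -1.34, -1.06 and -1.10), where 13.2% of all genes did. The part of these cell types in the values of Ctss was not tested. In RNA of whole muscle, fewer cells of a type and less RNA per cell cannot be told apart.

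Ctsk had normalized counts of 25.2, 89.1, 61.9, 64.3 and 104 in vehicle-treated mice, 18.4, 19.2, 15.6, 80.6 and 32.8 in semaglutide-treated mice and 44.9, 41.1 and 50.5 with the ketone ester. All semaglutide-treated mice but mouse 4 were at or below 32.8, and all vehicle-treated mice but mouse 1 were at or above 61.9. The log2 fold change with semaglutide was -1.17 ± 0.44 SE (95% confidence interval -2.13 to -0.20, limma adjusted p = 0.073), short of the threshold. It passed without semaglutide mouse 4 (-1.55, adjusted p = 0.011), without vehicle mouse 1 (-1.48, adjusted p = 0.026) and with semaglutide mice 1 and 4 both left out (-1.50, adjusted p = 0.016). With the ketone ester, Ctsk did not pass against semaglutide alone (0.72 ± 0.51 SE, limma adjusted p = 0.35) or against vehicle (-0.45 ± 0.51 SE, adjusted p = 0.85). Of 8 fibroblast markers, 6 fell with semaglutide, where 13.2% of all genes did, including Col1a1 (log2 fold change -3.02) and Col3a1 (-3.14), the chains of the main fibrillar collagens, while Dcn (-0.27, adjusted p = 0.35) and Fap (-0.72, adjusted p = 0.11) did not pass. The summed fibroblast markers were 5774 to 13040 normalized counts in vehicle-treated mice, lowest in mouse 1, 5129 to 6913 in semaglutide-treated mice and 7459 to 12171 with the ketone ester. The summed tendon markers were 1264 to 7185 normalized counts in vehicle-treated mice, 754 to 2813 in semaglutide-treated mice and 3345 to 4137 with the ketone ester. Of these 6 markers, 4 fell with semaglutide, where 13.2% of all genes did, and their log2 fold changes ran from -3.43 to 0.29. With the ketone ester against semaglutide alone, 1 tendon marker was higher and 1 lower, where 9.09% and 9.3% of all genes were. The part of fibroblast and tendon RNA in the values of Ctsk was not tested.

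**Figure D2:**
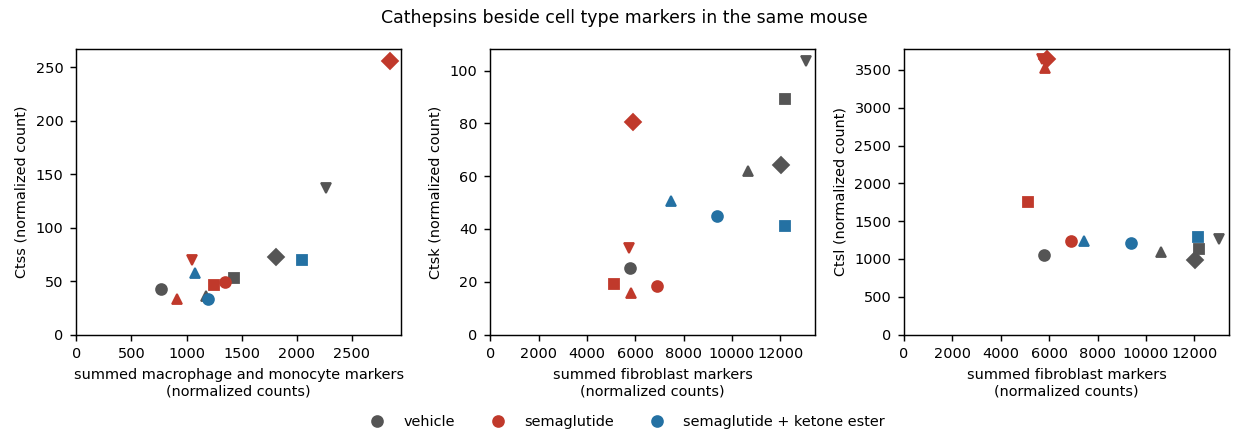
Normalized counts of Ctss, Ctsk and Ctsl (vertical axes) against summed normalized counts of macrophage and monocyte markers or fibroblast markers (horizontal axes) in the 13 mice, coloured by group, with the mouse number given by the same symbols as in the plot of all cathepsins. Semaglutide mouse 4 (diamond) holds the highest Ctss and the highest macrophage and monocyte sum, and the 3 semaglutide-treated mice of highest Ctsl, 3527 to 3639, have fibroblast sums between 5723 and 5909.

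Ctsz encodes cathepsin Z, also called cathepsin X, a carboxypeptidase that removes single residues. Its normalized counts were 307, 354, 417, 363 and 432 in vehicle-treated mice, 416, 607, 553, 822 and 619 in semaglutide-treated mice and 442, 418 and 415 with the ketone ester. Semaglutide mice 2 to 5 lay above all 8 mice of the other groups, and mouse 1 inside the vehicle range. Ctsz was 1.58-fold higher with semaglutide than with vehicle (log2 fold change 0.66 ± 0.16 SE, 95% confidence interval 0.33 to 1.00, limma adjusted p = 0.010), with each mouse left out in turn as well (adjusted p 0.00083 to 0.028). With the ketone ester the difference from semaglutide alone was -0.47 ± 0.18 SE on the log2 scale (adjusted p = 0.085). It was -0.60 without semaglutide mouse 1 and then passed (adjusted p = 0.0098). Ctsz overlaps exons of Nelfcd, which lies on the opposite strand.

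Ctsh, which encodes the aminopeptidase cathepsin H, moved the other way. Its normalized counts were 109, 108, 81.7, 121 and 106 in vehicle-treated mice, 78.3, 82.3, 54.4, 79.6 and 47.7 in semaglutide-treated mice and 106, 114 and 90.1 with the ketone ester. Semaglutide-treated mice were all below the lowest mouse with the ketone ester, and vehicle mouse 3 alone came down into their range. Ctsh was 1.55-fold lower with semaglutide than with vehicle (log2 fold change -0.63 ± 0.16 SE, 95% confidence interval -0.99 to -0.28, limma adjusted p = 0.016), also with each mouse left out (adjusted p 0.0094 to 0.043). With semaglutide + ketone ester it was 1.53-fold higher than with semaglutide alone (log2 fold change 0.61 ± 0.19 SE, 95% confidence interval 0.20 to 1.02, adjusted p = 0.0426). That second call was lost without vehicle mouse 1, 2, 4 or 5 (adjusted p = 0.056, 0.057, 0.051 and 0.057), semaglutide mouse 3 or 5 (0.087 and 0.078) or semaglutide + ketone ester mouse 1, 2 or 3 (0.10, 0.15 and 0.074). When each library was scaled to the same total, neither Ctsh difference passed (-0.46, adjusted p = 0.072, and 0.38, adjusted p = 0.19). That scaling moved the median of all genes by 0.17 for semaglutide against vehicle and by -0.24 for semaglutide + ketone ester against semaglutide.

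Ctsc encodes cathepsin C, a dipeptidyl peptidase that activates serine proteases of leukocytes. Its normalized counts were 320.4, 385, 440.5, 644 and 426 in vehicle-treated mice, 569, 278, 489, 532 and 560.2 in semaglutide-treated mice and 739.7, 783 and 619 with the ketone ester. All 3 mice with the ketone ester were above all 5 semaglutide-treated mice, and vehicle mouse 4 fell among them. The differences did not pass after adjustment, at 0.59 ± 0.25 SE on the log2 scale against semaglutide (limma adjusted p = 0.11) and 0.72 ± 0.25 SE against vehicle (adjusted p = 0.32). Semaglutide against vehicle was 0.13 ± 0.22 SE (adjusted p = 0.70).

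**Figure D3:**
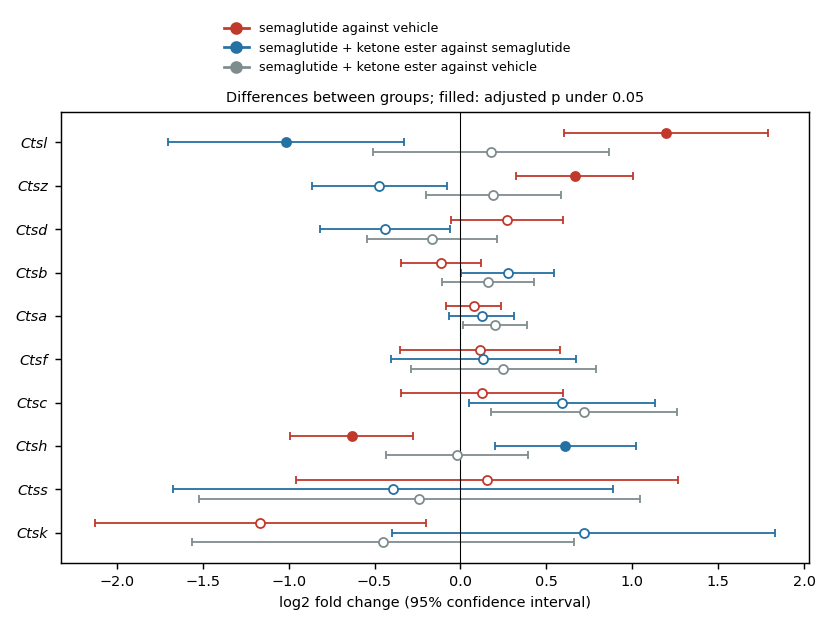
Log2 fold changes (horizontal axis) of the 10 cathepsin genes in the 3 comparisons, as points with 95% confidence intervals from limma over 13 mice; filled points have an adjusted p under 0.05. Filled are 5 points, those of Ctsl and Ctsh in both comparisons with the semaglutide group and that of Ctsz against vehicle.

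Ctsd, the aspartic protease and the most abundant member, had normalized counts of 9550.3, 10093, 9931, 10100 and 9784 in vehicle-treated mice. They were 7438, 13831, 12524, 13696 and 13726 in semaglutide-treated mice and 9118, 8482 and 8857 with the ketone ester. Semaglutide mice 2 to 5 were above every vehicle-treated mouse and mouse 1 below every one, while all 3 mice with the ketone ester lay below the vehicle range. With all mice the log2 fold change with semaglutide was 0.27 ± 0.15 SE (limma adjusted p = 0.21) and that of semaglutide + ketone ester against semaglutide -0.44 ± 0.17 SE (adjusted p = 0.096). Without semaglutide mouse 1 they were 0.44 (adjusted p = 0.00035) and -0.61 (adjusted p = 0.00018), and both passed. Semaglutide + ketone ester against vehicle was -0.17 ± 0.17 SE (adjusted p = 0.83), although the groups did not overlap. The coefficient of variation of Ctsd in vehicle-treated mice was 2.34%, the lowest of the 10 members, and 22.4% under semaglutide. Exons of Ctsd overlap the protein-coding gene Gm49369 on the same strand, which had a mean of 0 normalized counts.

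Ctsa encodes cathepsin A, a serine carboxypeptidase that also stabilizes lysosomal neuraminidase and beta-galactosidase in a complex. Its normalized counts ranged from 1089 to 1236 in vehicle-treated mice (median 1136), from 1083 to 1271 in semaglutide-treated mice (median 1253) and from 1217 to 1390.4 with the ketone ester (median 1355). The log2 fold change with semaglutide was 0.08 ± 0.07 SE (95% confidence interval -0.09 to 0.24, limma adjusted p = 0.49), and with semaglutide + ketone ester against vehicle 0.20 ± 0.09 SE (adjusted p = 0.44). Exons of Ctsa overlap Neurl2 and Pltp on the opposite strand.

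Of the 45 pairs of cathepsin genes, Ctsl and Ctsz were the most alike over the 13 mice, with a Pearson correlation of 0.87 of log2(normalized count + 1), followed by Ctsl and Ctsd at 0.78 and Ctsd and Ctsz at 0.76. Ctsl and Ctsh were the least alike, at -0.82. The 13 points share 3 groups, so these values partly restate the group differences. Among all genes tested, those closest to Ctsl were Mybbp1a, Wdr43 and Kmt2b (Pearson correlation 0.97 for each, and 0.93, 0.94 and 0.91 after the group means were removed). The Spearman correlations of Mybbp1a and Wdr43 with Ctsl were lower, 0.62 and 0.70, and that of Kmt2b was 0.90. Closest to Ctsd were Atg13 (0.98), which encodes a subunit of the kinase complex that starts autophagy, Ccni (0.96) and Slc15a4 (0.95), which encodes a lysosomal transporter. Closest to Ctsz were Eef1a1 (0.96), a translation elongation factor, Abcc8 (0.95) and Ptdss2 (0.95). Meox1, Npepps and Lama4 (0.92 each) were closest to Ctsh, and D16Ertd472e (0.90) and Yeats4 (0.87) were close to Ctsb. The closest genes were Tet3, Lrrc61 and Dclre1a for Ctsa (0.88, 0.85 and 0.85), Ypel3, Eif4a2 and Tbc1d17 for Ctsf (0.92, 0.91 and 0.90) and Usp1, Lrrk2 and Eef2kmt for Ctsc (0.90, 0.89 and 0.89). For Ctss they were G6pdx, Sulf2 and Car5b (0.92, 0.90 and 0.90), and for Ctsk Pkd2, Svep1 and Ntrk2 (0.92, 0.91 and 0.90). These are descriptions over 13 mice, given with no test.

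Other lysosomal genes moved in both directions with semaglutide. In 7 lists with 101 genes tested, 15 rose and 7 fell with semaglutide against vehicle, where 11.9% and 13.2% of all genes did, and the median log2 fold change was 0.09 against -0.0029 for all genes. With the ketone ester against semaglutide alone, 4 were higher and 9 lower, where 9.09% and 9.3% of all genes were, with a median of -0.09 against -0.0002. The 15 that rose and the 9 that were lower lay near the shares of all genes, while the 7 that fell and the 4 that were higher lay below them. Taken in both directions, 21.8% of the 101 passed with semaglutide against vehicle, where 25.1% of all genes did. With the ketone ester against semaglutide alone it was 12.9%, where 18.4% of all genes passed. The counts per list below were read against the same shares. Semaglutide + ketone ester against vehicle gave 0 of 101 by limma, with 4 at an unadjusted p under 0.05, and 0 by edgeR and DESeq2 on the recovered reads. Of the 12303 genes tested, only 29 passed by limma in that comparison and 1289 had an unadjusted p under 0.05. When each library was scaled to the same total, the split was 32 higher and 2 lower with semaglutide, and 1 higher and 33 lower with the ketone ester against semaglutide alone, a tilt that all genes had too under that scaling. The first count was 12 without semaglutide mouse 5, when 16.8% of all genes passed in place of 25.1%. The second was 30 without semaglutide mouse 1, 6 without semaglutide + ketone ester mouse 2 and 4 without mouse 3 of that group, when 32.1%, 7.91% and 7.01% of all genes passed in place of 18.4%.

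Among 41 genes of acid hydrolases and of related lysosomal proteins such as Psap, 4 rose and 4 fell with semaglutide. Gaa, the glycogen-degrading acid alpha-glucosidase, rose by 0.78 on the log2 scale (limma adjusted p = 0.0076), from 6373 ± 419 (SD, n = 5) to 11227 ± 2685 normalized counts (SD, n = 5), and was at 6036 ± 977 (SD, n = 3) with the ketone ester, lower by limma than with semaglutide alone (log2 fold change -0.87, adjusted p = 0.012). Gaa ranged from 6607 to 13627 in semaglutide-treated mice, the lowest of them inside the vehicle range of 5867 to 6924. Sgsh (-0.66), Ppt1 (-0.56) and Psap (-0.32), the precursor of the saposins, fell, and Ppt1 (0.60) and Psap (0.26) were higher with the ketone ester than with semaglutide alone. Lgmn, the asparaginyl endopeptidase that processes cathepsins, was at -0.13 with semaglutide (adjusted p = 0.66).

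Among 21 lysosomal membrane proteins and transporters, 5 rose and 2 fell with semaglutide. Lamp2, a major membrane glycoprotein, rose (0.53, limma adjusted p = 0.034), while Lamp1 was at 0.05 (adjusted p = 0.72). Lamp2 ranged from 1144 to 2248 normalized counts in semaglutide-treated mice, the lowest of them below the vehicle range of 1152 to 1388. Ctns, the cystine transporter (0.49), and Mcoln1, a calcium channel (0.45), rose, and Ostm1 (-0.48) and Tmem192 (-0.46) fell. With the ketone ester against semaglutide alone, Cd63 (-0.63) and Slc36a1 (-0.50) were lower, and Ostm1 (0.53) and Tmem192 (0.47) higher. Lamp2 was at -0.47 (adjusted p = 0.096).

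Of 19 tested subunits of the V-ATPase, the proton pump that acidifies the lysosome, Atp6v0d1 (0.36) and Atp6v0c (0.27) rose and 0 fell, and Atp6v0d1 was lower with the ketone ester (-0.43). Of 9 genes that sort enzymes to the lysosome, 3 rose and 0 fell. Gnptg (0.67, limma adjusted p = 0.0009) and Gnptab (0.43), subunits of the phosphotransferase that makes the mannose-6-phosphate tag, and the adaptor Gga1 (0.47) were those 3. With the ketone ester, Gnptg (-0.70) and Gga1 (-0.43) were lower than with semaglutide alone.

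Of 7 tested cathepsin inhibitors, 1 rose and 1 fell. Cst6, a secreted cystatin, rose with semaglutide (0.74, limma adjusted p = 0.0016) and was lower with the ketone ester than without it (-0.82, adjusted p = 0.0033). Cst3, cystatin C, fell with semaglutide (-0.39, adjusted p = 0.018) and was at 0.28 with the ketone ester against semaglutide (adjusted p = 0.12). The 3 tested transcription factors of lysosomal genes did not pass the test. Tfeb was at 0.10 (adjusted p = 0.61) and Tfe3 at 0.09 (adjusted p = 0.62) with semaglutide, and Tfeb was at -0.31 with the ketone ester against semaglutide (adjusted p = 0.16).

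**Figure D4:**
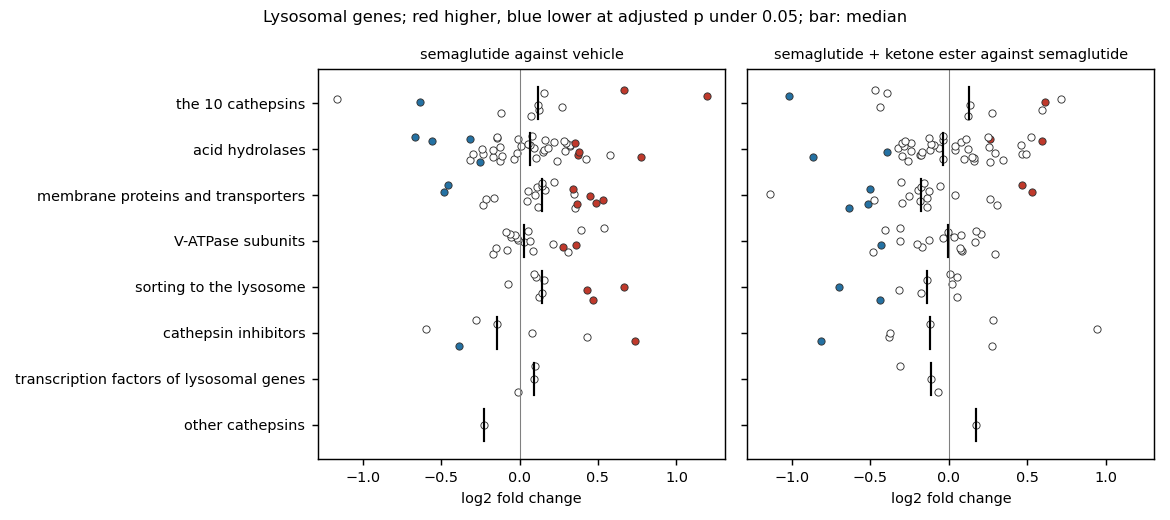
Log2 fold changes (horizontal axes) of the 10 cathepsin genes and of the 7 lists of other lysosomal genes, with semaglutide against vehicle on the left and semaglutide + ketone ester against semaglutide on the right; each point is 1 gene, red and blue points are higher and lower at an adjusted p under 0.05, and bars are medians. Called genes lie on both sides of 0, with 15 higher and 7 lower among the other lysosomal genes on the left and 4 higher and 9 lower on the right.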

How the data were processed

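Gastrocnemius RNA of 13 mice (5 vehicle, 5 semaglutide, 3 semaglutide + ketone ester, grouped by the treatment label) was prepared by the authors as stranded mRNA libraries, sequenced as paired ends and aligned to mm10 with DRAGEN. Their processing notes also name DESeq2. The counting program and gene annotation are not given in the sources used here. The authors deposited 1 signal value per gene and mouse, normalized counts. All of them were whole multiples of the value of 1 read, within 0.001, so 100% of values were recovered as whole reads, and 0 columns were left unused.

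Log2(normalized count + 1) was fitted in limma 3.58.1 (R 4.3.3) with all 3 groups for the 12303 genes with a mean of at least 10, and p-values were adjusted by Benjamini-Hochberg over all of them, with a threshold of 0.05. The log2(normalized count + 1) scale understates changes of low genes. Confidence intervals are at 95%. The script was tested on simulated data. Alternatives were equal totals, quantile normalization, a pseudocount of 10, no minimum or a minimum mean of 50, a mean-variance trend, array weights, edgeR 4.0.16 and DESeq2 1.42.0 on the recovered reads, only the 2 groups compared, and each mouse left out. Leaving out semaglutide mice 1 and 4 together, and levels per median coding transcript length, were added after the data were seen. P-values measure the spread between mice. At these depths, 3 reads are 1.28e-05% to 1.96e-05% of a library, counting error only.

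The 10 cathepsin genes, the gene lists and the markers were chosen with earlier results of these data known. All 10 members are named. Of the other lysosomal genes, those past the threshold were named by size, at most 3 per direction, list and comparison, with Lamp1, Lamp2, Tfeb, Tfe3, Lgmn and Cst3 always given, and for each member the 3 genes of highest Pearson correlation. Some genes that this rule names are not reported here. Marker lists were of macrophages and monocytes, antigen-presenting cells, lymphocytes, neutrophils and mast cells, fibroblasts, tendon, adipocytes, endothelial cells, satellite cells and muscle fibres. Lengths and coordinates are from GENCODE M21 (GRCm38) and promoter windows from RefSeq (GRCm38.p6).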

Additional observations from a re-analysis of the deposited data

Results flagged for a closer look

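In the 20 groups of 5 mice (10 cathepsin genes, vehicle and semaglutide), 4 values lay further from the rest of their group than Dixon's 95% critical ratio of 0.71 allows. Chance alone gives about 1 in 20 independent groups. These are 10 genes measured in the same vehicle- and semaglutide-treated mice, so an excess over chance cannot be read from the 4. All 4 values were from semaglutide-treated mice. Ctsd was at 7438 normalized counts in semaglutide mouse 1, with the other 4 between 12524 and 13831. Ctss was at 255.4 in semaglutide mouse 4, with the others between 33.3 and 70.1. Ctsk was at 80.6 in the same mouse, with the others between 15.6 and 32.8. Ctsc was at 278.4 in semaglutide mouse 2, with the others between 489 and 569. Groups of 3 were not tested in this way.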

How the results depend on the processing

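Counts of cathepsin genes past the threshold depended on the setting mainly for semaglutide + ketone ester against semaglutide. The reported 2 became 1 with quantile normalization, 0 without a minimum mean, 0 with only the 2 groups fitted, 4 with DESeq2 and 5 with array weights, and ranged from 0 to 4 with each mouse left out. For semaglutide against vehicle, the reported 3 became 5 with array weights. Other lysosomal genes, 22 in that comparison, numbered 34 with equal totals and 36 with array weights, and 12 to 32 with each mouse left out. In the comparison of mice with and without the ketone ester, the 13 reported became 34 with equal totals, 34 with array weights and 4 with only the 2 groups fitted, and ranged from 4 to 30 with each mouse left out. Leaving out semaglutide mice 1 and 4 together, an alternative chosen after the data were seen, gave 5 cathepsins and 34 other genes against vehicle, and likewise 5 and 34 between the mice with and without the ketone ester. The share of all genes past the threshold moved as well, but not always in step. For semaglutide + ketone ester against semaglutide, quantile normalization gave 18.8%, no minimum mean 9.89% and DESeq2 13% of 21868 genes. The cathepsin counts under these settings were 1, 0 and 4. As reported, the share of all genes in that comparison was 18.4%. It was 6.1% with only the 2 groups fitted, 34.8% with array weights and 34.1% with equal totals. Without semaglutide mice 1 and 4 it was 32%, and with each mouse left out 7.01% to 32.1%. For semaglutide against vehicle it was 25.1% as reported, 39.4% with array weights, 34% with equal totals and 35.3% without those 2 mice. The causes were not tested.

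Directions turned only for differences that had not passed. With equal totals, Ctsb was at 0.058 on the log2 scale for semaglutide against vehicle, and Ctsa at -0.11 and Ctsf at -0.10 for semaglutide + ketone ester against semaglutide. With array weights, Ctss was at -0.046 for semaglutide against vehicle and Ctsf at -0.10 for semaglutide + ketone ester against semaglutide. With semaglutide mice 1 and 4 left out, Ctss (-0.34) and Ctsc (-0.025) for semaglutide against vehicle, and Ctss (0.10) and Ctsf (-0.058) for semaglutide + ketone ester against semaglutide, had turned. With each mouse left out, semaglutide against vehicle ranged from -0.32 to 0.45 for Ctss and from -0.011 to 0.32 for Ctsf, semaglutide + ketone ester against semaglutide from -0.64 to 0.085 for Ctss and from -0.070 to 0.26 for Ctsf, and semaglutide + ketone ester against vehicle from -0.46 to 0.073 for Ctss and from -0.11 to 0.071 for Ctsh. The rises of Ctsl and Ctsz with semaglutide passed under every setting run, and the fall of Ctsh under all but equal totals. With 3 to 5 mice per group, intervals were wide for the low members Ctss and Ctsk. Ctsk did not reach a minimum mean of 50 and has no value under it.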

Other observations

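Markers of other cell types were summed in each mouse. Endothelial markers stayed within 4173 to 5327 normalized counts in all 13 mice, and 0 of 6 passed by limma with semaglutide against vehicle, 1 with an unadjusted p under 0.05. With the ketone ester against semaglutide alone, 1 of the 6 was higher by limma, where 9.09% of all genes were, and 2 had an unadjusted p under 0.05. Satellite cell markers summed to 445 to 711 in vehicle-treated mice, 399 to 570.2 in semaglutide-treated mice and 318 to 344 with the ketone ester. Of the 3 tested, 0 passed by limma in the 2 comparisons with the semaglutide group, with 0 and 1 at an unadjusted p under 0.05. Of the 12303 genes tested, 25.1% and 18.4% passed in these comparisons, and 4744 and 4215 had an unadjusted p under 0.05. Neutrophil and mast cell markers were at most 101 in all mice but semaglutide mouse 4, where they summed to 155. Of 10 muscle fibre markers, Mb (log2 fold change -2.15), Pvalb (-1.36), Myh4 (-0.60) and Acta1 (-0.46) fell with semaglutide and Actn3 (0.74) rose. Of all genes, 13.2% fell and 11.9% rose in that comparison. With the ketone ester against semaglutide alone 6 of these markers were higher and 1 lower, where 9.09% and 9.3% of all genes were.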
